A study of Mus musculus with 20 samples.

Results

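The genes described here encode the digestive enzymes and membrane proteins of the lysosome, together with Tfeb, a transcription factor that controls many of them. They were given by name as a list of 33 genes, with no threshold on a measured value, and all 33 were found among the 49315 genes of the deposited table. Lysosomes are acidic organelles in which proteases, glycosidases, sulfatases and lipases break down material delivered by endocytosis and autophagy. In the liver they degrade lipoproteins and lipid droplets in hepatocytes and cell debris in macrophages, and inherited loss of single enzymes causes storage diseases that often enlarge the liver. TFEB and its relatives bind an E-box, the CLEAR element, near the start of many lysosomal genes.

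Liver RNA was sequenced from 20 mice of a diet-induced obese model of steatohepatitis, all kept on the AMLN diet, with 1 library per separately numbered animal. Of these, 10 animals were dosed by mouth, once daily, with S217879 at 30 mg/kg, and 10 animals with the vehicle, HEC 1%, both for 8 weeks. S217879 is, by the series title, a compound that disrupts the binding of NRF2 to KEAP1, and the comparison asks how it changes the diseased liver. Values are TPM, a gene's share of its library after division by gene length, scaled so that each library sums to 1000000. The sources used here do not give strain, age or sex, and because both groups were on the diet no comparison with healthy liver is made. In whole liver, fewer cells of a type and less RNA per cell cannot be told apart.

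Read depth is unknown in such values, and the spread between animals is the only measure of precision. The hepatocyte gene Alb averaged 29160 ± 4509 TPM in S217879 livers and 33780 ± 8325 TPM in vehicle livers (SD, n = 10 each), as the tissue label implies. The 4 rRNA-type gene models Gm23935, Gm24270, Gm42418 and Mir6236 took 14.1% to 38.1% of the TPM in S217879 libraries and 17.4% to 31.4% in 8 vehicle libraries, but 58.2% in vehicle replicate 6 and 50.7% in vehicle replicate 7. Because the total is fixed, a high share of these models lowers the TPM of the rest. Size factors by the median of ratios, which remove such a scale difference, lay between 0.845 and 1.15 in S217879 libraries and between 1.03 and 1.24 in the same 8 vehicle libraries, against 0.685 and 0.784 in vehicle replicates 6 and 7. Values are therefore given as deposited and, where the text says scaled, after division by these factors.

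Promoters of 4 members are shown first because they carry the sequence that the TFEB family recognises, and because the RNA of the genes behind them went different ways. Each run is the 100 bases before the RefSeq transcript start (RefSeq, GRCm38.p6), 5′ to 3′ on the strand of the gene, with the 6 letters CACGTG in capitals. Mcoln1 lies at chr8:3500419-3500518 on the plus strand, Glb1 at chr9:114400978-114401077 on the plus strand, Lamp1 at chr8:13159061-13159160 on the plus strand, and Ctsd at chr7:142387828-142387927 on the minus strand.
Mcoln1: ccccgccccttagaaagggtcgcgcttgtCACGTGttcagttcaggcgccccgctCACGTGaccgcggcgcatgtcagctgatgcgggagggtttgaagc
Glb1: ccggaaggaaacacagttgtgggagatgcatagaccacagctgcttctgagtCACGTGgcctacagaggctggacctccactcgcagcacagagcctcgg
Lamp1: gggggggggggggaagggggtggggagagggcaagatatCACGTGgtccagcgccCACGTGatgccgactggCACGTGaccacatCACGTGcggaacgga
Ctsd: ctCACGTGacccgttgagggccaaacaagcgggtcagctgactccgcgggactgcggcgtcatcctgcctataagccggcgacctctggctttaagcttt
The Lamp1 window held 4 copies of CACGTG within 61 bases of the start, the Mcoln1 window 2, and the Glb1 and Ctsd windows 1 each. Mcoln1 and Glb1 fell in S217879 livers, whereas Lamp1 and Ctsd did not pass the test as deposited and were higher after scaling.

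Among the 29 members with a promoter in the RefSeq table, 11 (37.9%) held CACGTG on either strand between 250 bases before and 50 bases after a start, against 8.09% of all 27025 genes with a promoter there. CACGTG reads the same on both strands, and it lies inside TCACGTGA, the longer form of the CLEAR core, which 4 members held (13.8%, Ctsa, Ctsd, Gla and Mcoln1) against 1.12% of all genes. The members with CACGTG were Arsa, Ctsa, Ctsd, Ctsf, Ctsl, Gaa, Gla, Glb1, Lamp1, Lgmn and Mcoln1. TGACNNNGC, the core of the antioxidant response element bound by NRF2, was found in either strand of 6 members (20.7%, Ctsd, Ctsz, Hexa, Psap, Scarb2 and Tpp1), against 14% of all genes. Such a match describes letters in a window and is not evidence that a factor binds there. Ctsb, Ctsh, Asah1 and Npc1 had no entry in the promoter table.

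The lysosomal genes that changed as deposited were lower in S217879 livers, and a minority was level or, after scaling, higher. Of the 33 members 18 fell, none rose and 15 did not pass the test (limma on log2(TPM + 0.5), Benjamini-Hochberg adjusted p under 0.05 over 13401 genes). Over all genes tested, 23.5% fell and 6.07% rose. No member was higher at an unadjusted p under 0.05 either (0 of 33), nor by an exact Wilcoxon rank-sum test (0 of 33). The median log2 difference of the members was -0.33, beside -0.12 over all tested genes, and 27 members had a negative difference.

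After scaling, the median of all tested genes moved to -0.01 and the members split in 2 directions. On that scale 22 members fell, beside 27.1% of all genes, and 6 members rose (Ctsd, Hexa, Gaa, Ids, Lamp1 and Lamp2), beside 26.6% of all genes. The 22 comprised the 18 that fell as deposited together with Ctsb, Ctsz, Man2b1 and Scarb2. Ctsc, Ctsf, Ctsh, Arsb and Psap passed in neither direction. The median scaled difference of the members was -0.21. Other treatments of the scale moved the whole table: rescaling without the 4 rRNA-type genes left 28 members lower and 0 higher, beside 64.0% and 7.54% of all genes, and leaving out vehicle replicates 6 and 7 left 25 lower and 0 higher, beside 54.4% and 5.56% of all genes.

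The summed TPM of the 33 genes was 3189, 3793 and 4500 in S217879 livers (lowest, median and highest), and 2904, 4496 and 5328 in vehicle livers. On average the 33 genes made up 0.380% of the TPM in S217879 livers and 0.441% in vehicle livers. Without vehicle replicates 6 and 7 the vehicle sums began at 4333 TPM, so that the groups met only in the top of the S217879 range. After scaling the sums ran from 3716 to 4177 in S217879 livers and from 3843 to 4395 in vehicle livers, and the groups still overlapped.

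**Figure D1:**
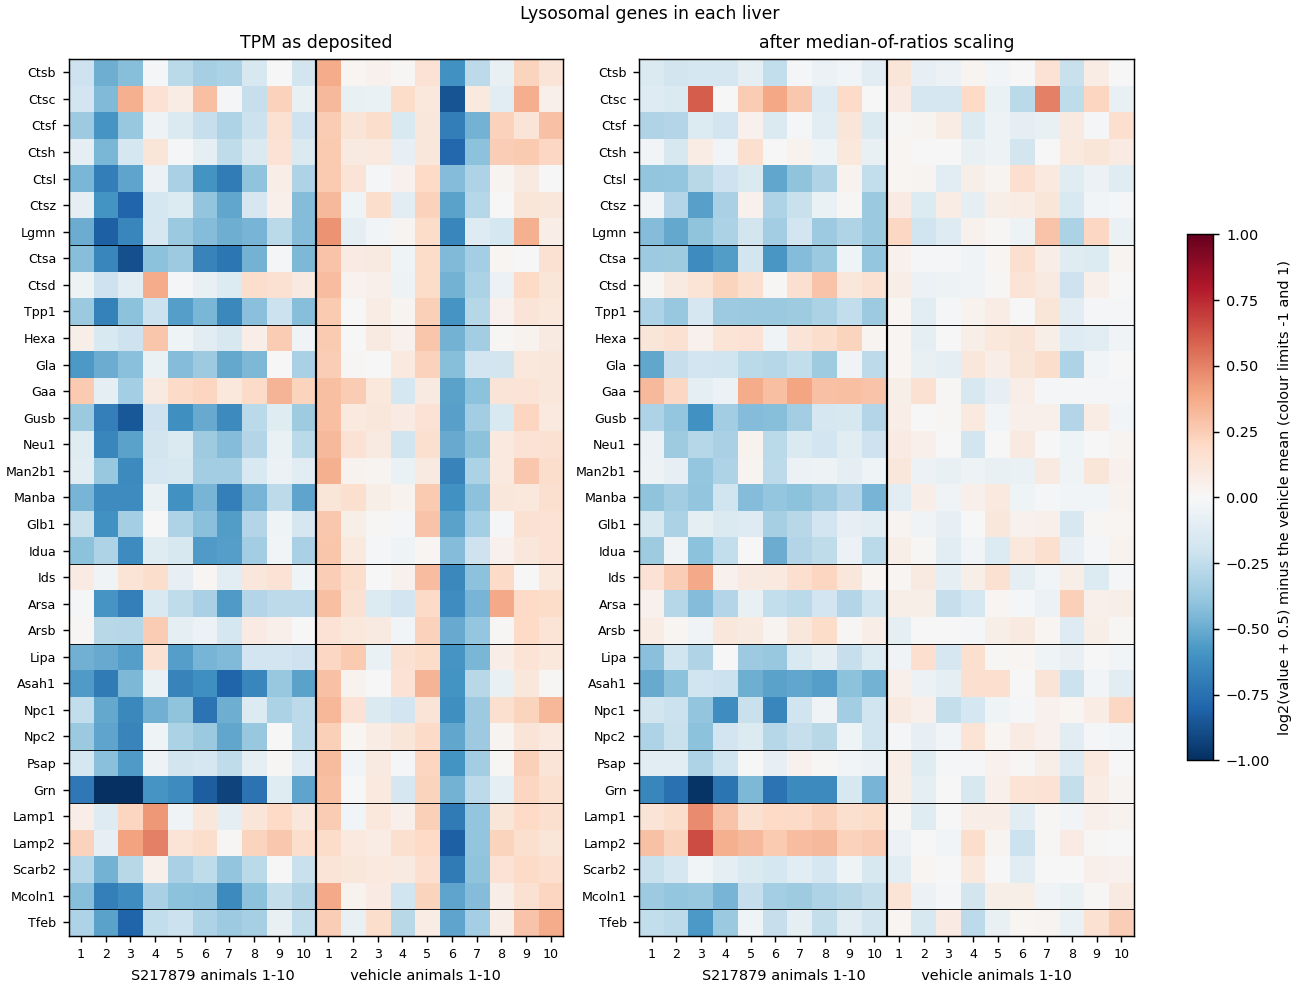
Each cell is 1 liver's log2(value + 0.5) of a gene minus the vehicle mean, for S217879 animals and then vehicle animals, as deposited (left panel) and after median-of-ratios scaling (right panel), with colours limited to -1 and 1. Vehicle animal 6 is the lowest vehicle library for all 33 genes as deposited, a pattern that is gone after scaling, where Lamp1 and Lamp2 are red and most other rows blue in S217879 animals.

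Among the lysosomal proteases the changes were divided. Ctsl, cathepsin L, a cysteine protease that cuts endocytosed and autophagic proteins, measured 272, 327 and 463 TPM in S217879 livers (lowest, median and highest of 10), and 326, 451 and 529.7 TPM in vehicle livers. It fell by 0.40 on the log2 scale (SE 0.13, limma adjusted p = 0.0137), and 5 of 10 S217879 livers lay below the lowest vehicle liver. Lgmn, legumain, which cuts after asparagine and matures the cathepsins, measured 72.2, 93.2 and 113 TPM in S217879 livers, and 80.8, 127 and 174 TPM in vehicle livers. All 10 S217879 livers lay under the vehicle median of Lgmn, and it fell by 0.46 (SE 0.12, limma adjusted p = 0.0040).

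Ctsb, cathepsin B, a cysteine protease of liver and immune cells, measured 290.3, 345 and 409.8 TPM in S217879 livers, and 269, 417 and 527 TPM in vehicle livers. Its log2 difference of -0.24 did not pass the test as deposited (95% interval -0.49 to 0.01, limma adjusted p = 0.1426), although all 10 S217879 livers lay under the vehicle median. After scaling the Ctsb difference was -0.12 and passed (limma adjusted p = 0.0228). Ctsb exons share 12.8% of their bases with Fdft1 on the opposite strand, a gene at a mean of 34.9 TPM. Ctsz, the carboxypeptidase cathepsin Z, had a log2 difference of -0.33 (limma adjusted p = 0.0534), and passed after scaling at -0.21 (limma adjusted p = 0.0120). The other cysteine cathepsins, Ctsc (an activator of serine proteases of immune cells), Ctsf and Ctsh (an aminopeptidase), had log2 differences of 0.01, -0.23 and -0.11 and passed on neither scale.

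The serine carboxypeptidase Ctsa, cathepsin A, which also shields β-galactosidase and neuraminidase 1 from degradation, measured 44.0, 59.0 and 80.9 TPM in S217879 livers, and 59.9, 84.5 and 99.6 TPM in vehicle livers. It fell by 0.51 on the log2 scale (SE 0.12, limma adjusted p = 0.0011), with 6 of 10 S217879 livers below all vehicle livers. Ctsa exons share 10.5% of their bases with Pltp on the opposite strand, and the sources used here do not say whether the counting used strand. Tpp1, a tripeptidyl peptidase, measured 25.6, 30.5 and 35.4 TPM in S217879 livers, and 27.1, 42.9 and 49.5 TPM in vehicle livers. It fell by 0.44 as deposited (SE 0.11, limma adjusted p = 0.0024), and after scaling every S217879 liver, at 30.2 to 35.1, lay below every vehicle liver, at 36.7 to 43.0.

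Ctsd, cathepsin D, the main aspartic protease of the lysosome, went another way. It measured 280.4, 316 and 420.2 TPM in S217879 livers, and 234, 334 and 402.5 TPM in vehicle livers, and the groups overlapped almost entirely. Its log2 difference was 0.02 (95% interval -0.23 to 0.26, limma adjusted p = 0.9275). After scaling it was 0.14 higher (limma adjusted p = 0.0132), but after rescaling without the 4 rRNA-type genes it was lower (-0.13, limma adjusted p = 0.0431), so that the scaling sets its direction. Ctsl was 90.9% to 128% of Ctsd in S217879 livers and 125% to 145% of it in vehicle livers, a ratio in which the scale of the library cancels. That ratio was chosen after the values were seen and carries no test.

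**Figure D2:**
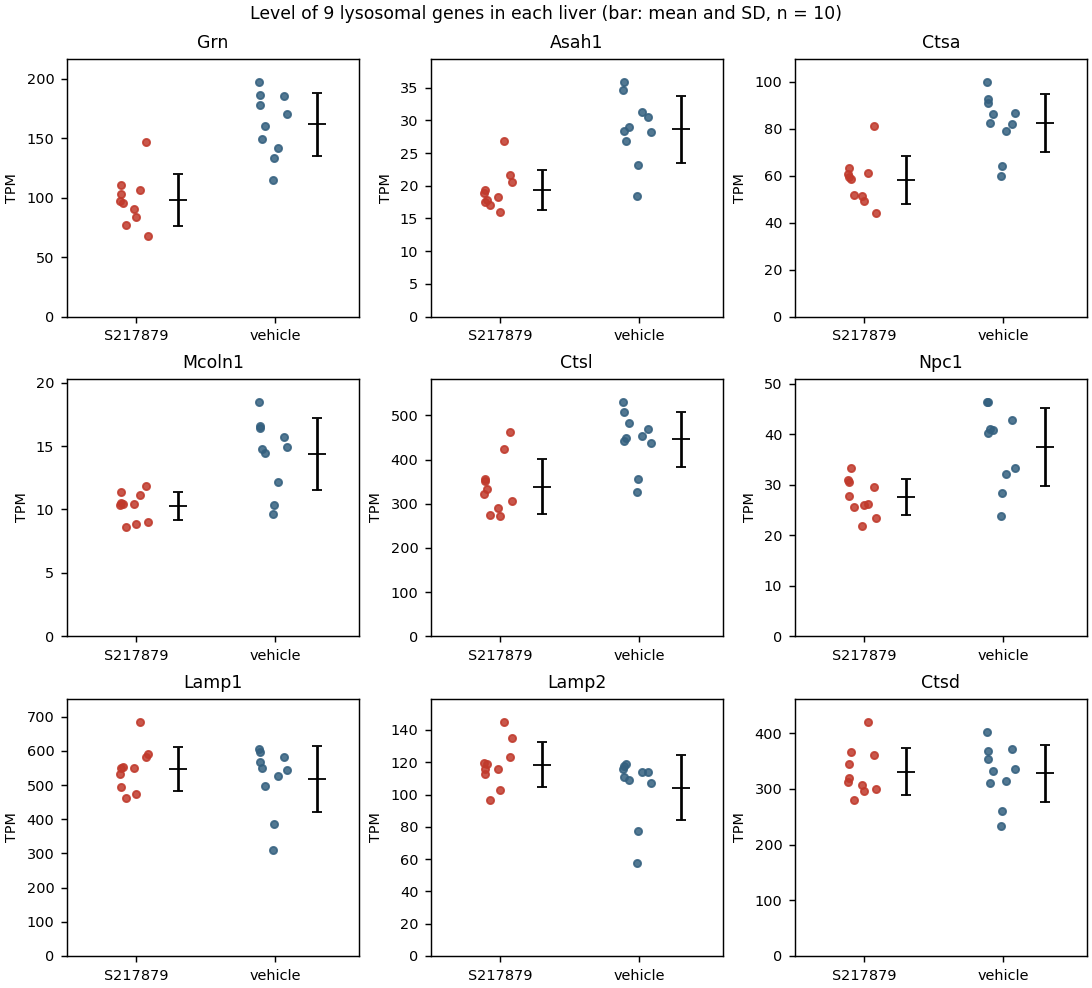
Each point is the level of a gene in 1 liver in TPM, S217879 on the left and vehicle on the right, with bars for mean and SD (n = 10 each). Grn, Asah1, Ctsa, Mcoln1, Ctsl and Npc1 lie lower in S217879 livers, with 9 of 10 S217879 livers below all vehicle livers for Grn. Lamp1, Lamp2 and Ctsd overlap, with a pair of low vehicle livers. For Lamp2, 4 of 10 S217879 livers lie above all vehicle livers, and for Lamp1 and Ctsd 1 each.

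Of the 9 glycosidases, 6 fell as deposited, beside 23.5% of all genes. Manba, β-mannosidase, which removes the last mannose of N-glycan chains, measured 5.13, 5.90 and 8.14 TPM in S217879 livers, and 5.42, 9.23 and 10.3 TPM in vehicle livers. It fell by 0.48 on the log2 scale (SE 0.11, limma adjusted p = 8.23e-04). After scaling the Manba groups did not overlap, with 5.78 to 7.05 in S217879 livers and 7.56 to 8.80 in vehicle livers. Gusb, β-glucuronidase, an enzyme of glycosaminoglycan breakdown, measured 13.2, 17.7 and 22.2 TPM in S217879 livers, and 16.5, 25.9 and 29.99 TPM in vehicle livers, and fell by 0.46 (SE 0.12, limma adjusted p = 0.0021). All 10 S217879 livers lay below the vehicle median of Gusb.

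Gla, α-galactosidase A, the enzyme lost in Fabry disease, and Idua, α-iduronidase, the enzyme lost in Hurler syndrome, were the members of lowest mean level. Gla measured 3.06, 3.44 and 4.80 TPM in S217879 livers, and 3.45, 5.01 and 5.78 TPM in vehicle livers, and fell by 0.36 (SE 0.10, limma adjusted p = 0.0056). Idua measured 2.64, 3.34 and 4.26 TPM in S217879 livers, and 3.09, 4.45 and 5.39 TPM in vehicle livers, and fell by 0.34 (SE 0.10, limma adjusted p = 0.0088). Of the exonic bases of Idua 3.35% overlap Slc26a1 on the opposite strand, a gene at a mean of 89.9 TPM, and whether reads of that gene entered the Idua values was not tested.

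Neu1, which removes sialic acid, measured 16.2, 21.1 and 24.7 TPM in S217879 livers, and 18.1, 28.1 and 32.5 TPM in vehicle livers, and fell by 0.31 (SE 0.11, limma adjusted p = 0.0388). Glb1, β-galactosidase, measured 7.87, 9.84 and 12.2 TPM in S217879 livers, and 8.28, 12.5 and 14.9 TPM in vehicle livers, and fell by 0.30 (SE 0.11, limma adjusted p = 0.0384). Both enzymes form a complex with cathepsin A, whose gene also fell. The α-mannosidase Man2b1 had a log2 difference of -0.25 (limma adjusted p = 0.1138) and passed after scaling at -0.13 (limma adjusted p = 0.0330). Hexa, the α chain of β-hexosaminidase, and Gaa, acid α-glucosidase, which degrades glycogen in the lysosome, had log2 differences of -0.00 and 0.12 as deposited. After scaling Hexa was 0.11 higher and Gaa 0.23 higher (limma adjusted p = 0.0227 and 0.0021), whereas without the 4 rRNA-type genes both were negative, Hexa at -0.15 with a call (limma adjusted p = 0.0274) and Gaa at -0.02.

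The 3 sulfatases differed from each other. Arsa, arylsulfatase A, which acts on sulfatide, measured 34.4, 45.7 and 55.0 TPM in S217879 livers, and 36.1, 62.6 and 72.7 TPM in vehicle livers, and fell by 0.34 (SE 0.13, limma adjusted p = 0.0372). Its exons share 18.8% of their bases with the antisense gene C230037L18Rik, at a mean of 2.18 TPM. Arsb, which acts on dermatan sulfate, had a log2 difference of -0.05, and Ids, iduronate sulfatase, one of 0.04 (limma adjusted p = 0.7797 and 0.8203). Ids was 0.15 higher after scaling (limma adjusted p = 0.0083) and -0.09 without the 4 rRNA-type genes.

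All 4 genes of lipid breakdown and export fell as deposited, beside 23.5% of all genes. Asah1, acid ceramidase, which splits ceramide into sphingosine and a fatty acid, measured 15.96, 18.6 and 26.8 TPM in S217879 livers, and 18.4, 28.7 and 35.8 TPM in vehicle livers. It fell by 0.54 on the log2 scale (SE 0.12, limma adjusted p = 3.29e-04), the second lowest difference among the members, and 5 of 10 S217879 livers were below every vehicle liver. Npc1 and Npc2 are the membrane and the soluble protein that pass cholesterol out of the lysosome. Npc1 measured 21.9, 27.0 and 33.4 TPM in S217879 livers, and 23.9, 40.5 and 46.4 TPM in vehicle livers, and fell by 0.42 (SE 0.12, limma adjusted p = 0.0062). Npc2 measured 39.8, 48.6 and 62.8 TPM in S217879 livers, and 43.9, 66.9 and 74.3 TPM in vehicle livers, and fell by 0.35 (SE 0.12, limma adjusted p = 0.0214).

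For both genes all 10 S217879 livers lay under the vehicle median, and Npc1 stood at 55.8% ± 8.38 of Npc2 in S217879 livers and 58.7% ± 6.85 in vehicle livers (SD, n = 10 each), a difference smaller than either SD. Lipa, lysosomal acid lipase, which frees cholesterol and fatty acids from esters taken up with lipoproteins, measured 162, 173 and 264 TPM in S217879 livers, and 158, 259 and 286 TPM in vehicle livers. It fell by 0.34 (SE 0.13, limma adjusted p = 0.0388), with 9 of 10 S217879 livers under the vehicle median and the 1 exception, S217879 replicate 4, above it.

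Grn, progranulin, a secreted and lysosomal glycoprotein that is cut into granulins, had the lowest difference of all members. It measured 67.8, 96.2 and 147 TPM in S217879 livers, and 115, 165 and 197 TPM in vehicle livers. The fall was 0.73 on the log2 scale (95% interval -0.995 to -0.473, SE 0.13, limma adjusted p = 2.45e-05), and 9 of 10 S217879 livers were below every vehicle liver. Grn lies on chromosome 11 at 102430315 to 102437048 on the plus strand (GRCm38, GENCODE M21), and 1.96% of its exonic bases overlap Fam171a2 on the opposite strand.

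Psap, prosaposin, the precursor of the saposins that help hydrolases reach sphingolipids and a binding partner of progranulin, was the most abundant member. It measured 535, 702 and 796 TPM in S217879 livers, and 523, 818 and 982 TPM in vehicle livers. Its log2 difference of -0.20 did not pass (95% interval -0.46 to 0.06, limma adjusted p = 0.2448), nor did it after scaling (-0.08, limma adjusted p = 0.1228). Within the same livers Grn was 14.02% ± 1.79 of Psap in the S217879 group and 20.2% ± 1.13 in the vehicle group (SD, n = 10 each), with a range of 12.6% to 18.4% in S217879 livers that met the vehicle range of 18.2% to 22% only at its end. That ratio was chosen after the values were seen and is a description.

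**Figure D3:**
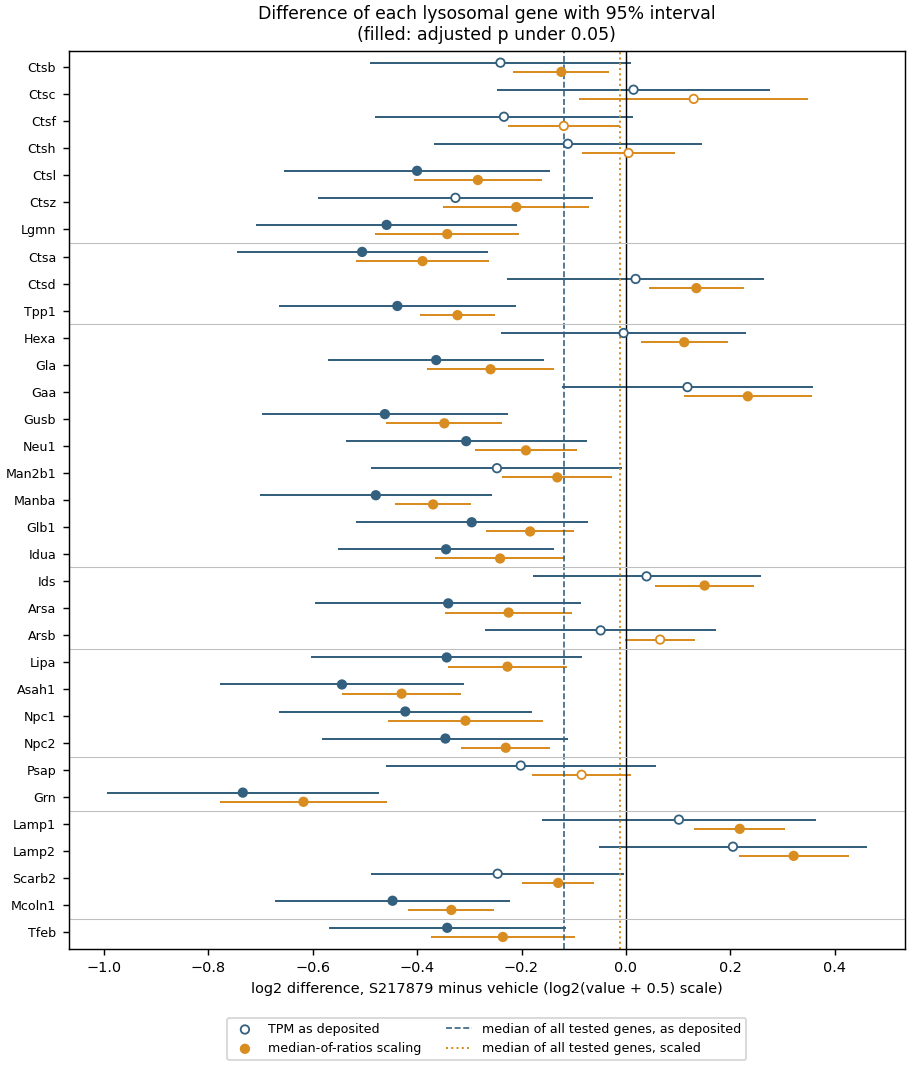
Points are log2 differences, S217879 minus vehicle, of the 33 genes on the log2(value + 0.5) scale with 95% intervals, as deposited (blue) and after median-of-ratios scaling (orange), filled where the adjusted p is under 0.05, and vertical lines mark the median of all tested genes. Grn is lowest at -0.73, and Lamp1 and Lamp2 lie right of 0 with intervals that include 0 as deposited and exclude it after scaling.

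Of the 4 membrane proteins 1 fell as deposited, beside 23.5% of all genes. After scaling 2 fell and 2 rose, beside 27.1% and 26.6% of all genes. Mcoln1, the calcium channel TRPML1 through which lysosomal calcium release activates TFEB, measured 8.61, 10.4 and 11.8 TPM in S217879 livers, and 9.62, 14.9 and 18.5 TPM in vehicle livers. It fell by 0.45 on the log2 scale (SE 0.11, limma adjusted p = 0.0019), with all 10 S217879 livers under the vehicle median. After scaling its groups were apart, at 9.68 to 11.4 in S217879 livers and 11.8 to 14.95 in vehicle livers. Scarb2, LIMP-2, the receptor that carries β-glucocerebrosidase to the lysosome, had a log2 difference of -0.25 (limma adjusted p = 0.1193), and passed after scaling at -0.13 (limma adjusted p = 0.0023).

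Lamp1 and Lamp2, the heavily glycosylated proteins that line the inner face of the lysosomal membrane, were the only members with a positive difference of 0.1 or more besides Gaa. Lamp1 measured 463, 549 and 685 TPM in S217879 livers, and 310.1, 548 and 606 TPM in vehicle livers, with a log2 difference of 0.10 (95% interval -0.16 to 0.36, limma adjusted p = 0.5955). Lamp2 measured 96.6, 117 and 145 TPM in S217879 livers, and 57.7, 113 and 119 TPM in vehicle livers, with a log2 difference of 0.21 (95% interval -0.05 to 0.46, limma adjusted p = 0.2291). In both genes the medians of the groups were close, and the lowest vehicle values were those of replicates 6 and 7.

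After scaling, Lamp1 was 533 to 674 in S217879 livers and 447 to 509 in vehicle livers, a difference of 0.22 (SE 0.04, limma adjusted p = 1.81e-04). Scaled Lamp2 was 114 to 154 in S217879 livers and 84.3 to 110.4 in vehicle livers, a difference of 0.32 (SE 0.05, limma adjusted p = 1.96e-05). On this scale neither gene overlapped between the groups. Without the 4 rRNA-type genes the Lamp1 difference was -0.04 and the Lamp2 difference 0.06, and neither passed (limma adjusted p = 0.3740 and 0.1954). Neither gene was therefore called higher as a share of the library without these 4 genes. Quantile normalization also centred the bulk of genes, with a median log2 difference of 0.005 over all tested genes. Under it Lamp2 was called higher, but Lamp1 had a small negative difference. The higher call of Lamp1 relative to the bulk of other genes thus depended on median-of-ratios scaling. Lamp1 exons share 9.31% of their bases with Grtp1 on the opposite strand, which had a mean of 7.93 TPM.

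Tfeb itself was a low member. It measured 2.90, 4.27 and 5.11 TPM in S217879 livers, and 3.61, 5.71 and 7.13 TPM in vehicle livers, and all 10 S217879 livers were under the vehicle median. It fell by 0.34 (SE 0.11, limma adjusted p = 0.0179), and by 0.24 after scaling (limma adjusted p = 0.0049), but missed the threshold by the exact Wilcoxon rank-sum test (adjusted p = 0.0566). TFEB acts through its phosphorylation and its place in the cell, which RNA levels do not show.

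No member had groups that did not overlap as deposited (0 of 33), beside 3.73% of all tested genes. After scaling the groups were apart for 5 members, Tpp1, Manba and Mcoln1 lower in S217879 livers and Lamp1 and Lamp2 higher in them, beside 12.6% of all tested genes. The coefficient of variation ran from 7.74% (Ids) to 22.2% (Grn) in S217879 livers, and from 14.1% (Ctsl) to 21.6% (Arsa) in vehicle livers. Scaling lowered its median over members to 9.16% in S217879 livers and 6.71% in vehicle livers, against 13.1% and 17.9% as deposited. Vehicle replicate 6 was the lowest vehicle library for all 33 members, and S217879 replicates 9 and 4 were the highest of their group for 18 and 12 members.

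As lower, 13 members passed under each of 32 other settings that gave them a value, of which 20 left out 1 library each. These were Ctsl, Lgmn, Ctsa, Tpp1, Gla, Gusb, Manba, Idua, Asah1, Npc1, Npc2, Grn and Mcoln1. Scaling without vehicle replicates 6 and 7, chosen after seeing the data, is not among the 32. The share of all tested genes called lower ran from 11.9% with no filter on low values to 64.0% without the 4 rRNA-type genes. How many of all tested genes passed as lower in every setting was not counted, so the 13 have no counterpart over all genes. The calls of Neu1, Glb1, Arsa and Lipa were near the threshold and were lost on leaving out single libraries, whichever group these came from. Neu1 was lost without S217879 replicate 2, 3, 6, 7, 8 or 10 or vehicle replicate 1, 2, 3, 5, 8, 9 or 10 (limma adjusted p = 0.0517 to 0.0861). Glb1 was lost without S217879 replicate 2, 3, 5, 6, 7 or 8 or vehicle replicate 1, 2, 3, 4, 5, 8, 9 or 10 (limma adjusted p = 0.0512 to 0.0830). Arsa was lost without S217879 replicate 2, 3, 6 or 7 or vehicle replicate 1, 2, 5, 8, 9 or 10 (limma adjusted p = 0.0502 to 0.0830), and Lipa without S217879 replicate 1, 2, 3, 5, 6 or 7 or vehicle replicate 1, 2, 3, 4, 5, 8, 9 or 10 (limma adjusted p = 0.0512 to 0.0781). Conversely, Ctsb, Ctsf, Man2b1 and Psap passed as lower without vehicle replicate 6 (limma adjusted p = 0.0090, 0.0137, 0.0060 and 0.0281). Scarb2 passed without vehicle replicate 6 or 7 (limma adjusted p = 0.0043 to 0.0470), and Ctsz without either of these or S217879 replicate 4 or 9 (limma adjusted p = 0.0053 to 0.0474).

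Shares of each gene in the 33-gene sum do not depend on the scale of a library, and they show how the make-up of the lysosomal RNA differed. Lamp1 held 14.4% ± 1.32 of the sum in S217879 livers and 11.7% ± 0.549 in vehicle livers (SD, n = 10 each), and ran from 13.1% to 17.6% in S217879 livers and from 10.7% to 12.4% in vehicle livers. Lamp2 held 3.13% ± 0.343 in S217879 livers and 2.36% ± 0.205 in vehicle livers. Ctsd held 8.71% ± 0.425 in S217879 livers and 7.47% ± 0.264 in vehicle livers. Hexa held 2.72% ± 0.101 in S217879 livers and 2.37% ± 0.115 in vehicle livers. For these members the groups did not overlap.

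Grn held 2.55% ± 0.336 of the sum in S217879 livers and 3.68% ± 0.213 in vehicle livers, and Asah1 0.510% ± 0.0552 in S217879 livers and 0.650% ± 0.0426 in vehicle livers. In both genes 9 of 10 S217879 livers lay below all vehicle livers. Tpp1 held 0.801% ± 0.0487 in S217879 livers and 0.946% ± 0.0238 in vehicle livers, while Psap held 18.2% ± 1.05 in S217879 livers and 18.2% ± 0.414 in vehicle livers. A share falls when another rises, so these values rank members against each other and say nothing on absolute amounts, and they have no counterpart over all genes.

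As ratios, Grn was 11.5% to 25.2% of Lamp1 in S217879 livers and 26.9% to 37.1% in vehicle livers, and Asah1 was 16.4% to 23.0% of Hexa in S217879 livers and 24.9% to 29.5% in vehicle livers. The groups were apart in each. Lamp2 was 20.8% to 22.9% of Lamp1 in S217879 livers and 18.6% to 21.9% in vehicle livers, and overlapped. The genes singled out for shares and ratios were chosen after their values were seen, so no test is given.

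**Figure D4:**
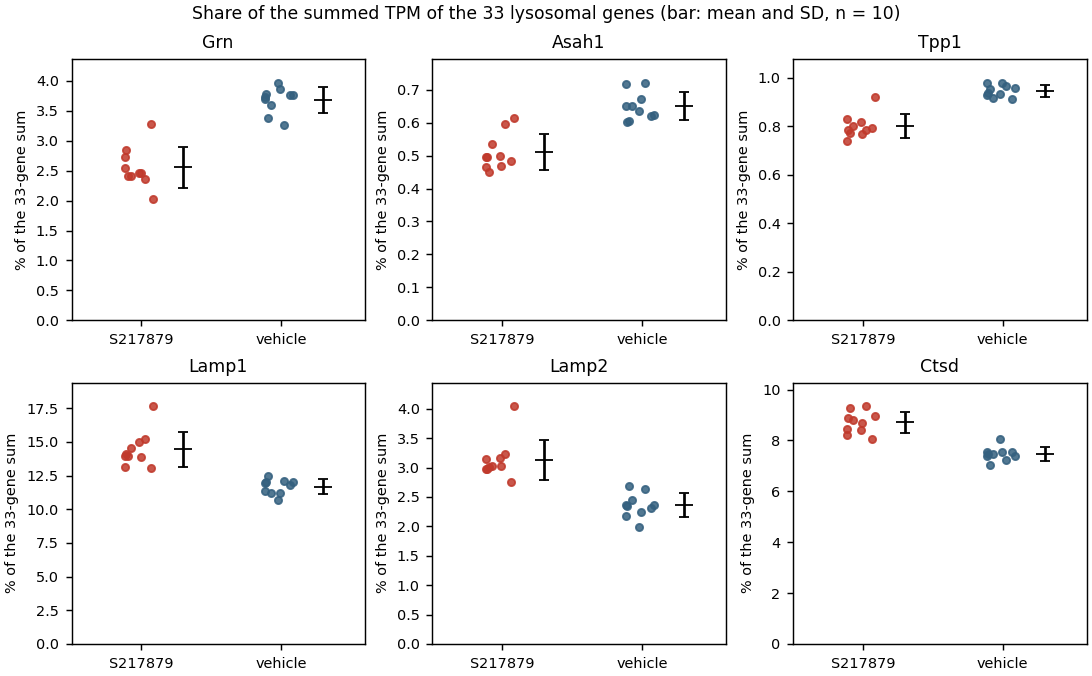
Each point is a gene's percentage of the summed TPM of the 33 lysosomal genes in 1 liver, S217879 on the left and vehicle on the right, with bars for mean and SD (n = 10 each). Grn, Asah1 and Tpp1 hold a smaller share in S217879 livers, and Lamp1, Lamp2 and Ctsd a larger one without overlap.

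Other genes of the pathway were read from 7 lists with 172 genes in all, of which 162 were tested. As deposited 37 fell and 5 rose, beside the 23.5% and 6.07% of all genes, and their median log2 difference was -0.12, the same as over all genes. After scaling 51 fell and 44 rose, beside 27.1% and 26.6% of all genes, with a median of -0.01. Without vehicle replicate 6 alone the number that fell as deposited was 70, in a setting in which 38.7% of all tested genes fell.

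Among 34 other hydrolases 10 fell and 1 rose as deposited, beside 23.5% and 6.07% of all genes, and 16 fell without vehicle replicate 6, beside 38.7% of all genes. After scaling 12 fell and 7 rose, beside 27.1% and 26.6% of all genes. Arsg, a sulfatase of heparan sulfate breakdown, averaged 5.02 ± 1.24 TPM in S217879 livers and 12.6 ± 2.29 TPM in vehicle livers (SD, n = 10 each), without overlap (log2 difference -1.26, limma adjusted p = 8.44e-11). Ctsk, cathepsin K, a collagen-cutting protease, averaged 3.57 ± 0.754 TPM in S217879 livers and 6.52 ± 1.29 TPM in vehicle livers (log2 difference -0.78, limma adjusted p = 1.53e-06). Galc, which splits galactosylceramide, had a log2 difference of -0.27 and lay at the threshold (limma adjusted p = 0.0490). Plbd2, a phospholipase B-like protein of the lysosome, was the 1 that rose as deposited, with 55.2 ± 5.75 TPM in S217879 livers and 32.0 ± 7.46 TPM in vehicle livers, no overlap, and a log2 difference of 0.81 (limma adjusted p = 2.49e-06).

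Of 28 other membrane proteins tested 10 fell and 1 rose as deposited, beside 23.5% and 6.07% of all genes (16 fell without vehicle replicate 6, beside 38.7% of all genes, and 2 rose without S217879 replicate 3). After scaling 12 fell and 5 rose, beside 27.1% and 26.6% of all genes. Cd63, a tetraspanin of late endosomes and exosomes, averaged 44.5 ± 13.4 TPM in S217879 livers and 123 ± 24.0 TPM in vehicle livers, without overlap (log2 difference -1.48, limma adjusted p = 1.03e-10). Gpr137b, a membrane protein that regulates mTORC1 at the lysosome, averaged 2.65 ± 0.428 TPM in S217879 livers and 4.85 ± 0.544 TPM in vehicle livers (log2 difference -0.77, limma adjusted p = 5.98e-08). Pip4p1, a phosphoinositide phosphatase, fell by 0.30 (limma adjusted p = 0.0358), and Tmem192, a common tag of lysosomes, rose by 0.32 (limma adjusted p = 0.0202).

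Of 19 tested subunits of the V-ATPase, the proton pump that acidifies lysosomes, 4 fell and none rose as deposited, beside 23.5% and 6.07% of all genes. The number that rose was also 0 at an unadjusted p under 0.05 and by the Wilcoxon test. After scaling, however, 4 rose and 8 fell, beside 26.6% and 27.1% of all genes. As deposited 10 fell without vehicle replicate 6, beside 38.7% of all genes. The lowest difference was that of Atp6v0d2, a subunit found in macrophages and osteoclasts, with 3.04 ± 1.21 TPM in S217879 livers and 5.90 ± 1.29 TPM in vehicle livers (log2 difference -0.89, limma adjusted p = 2.48e-05). Atp6v0e2 had a log2 difference of -0.49, Atp6v1b2 one of -0.34 and Atp6v0b one of -0.32 (limma adjusted p = 0.0017, 0.0176 and 0.0408).

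In the list of 25 genes that sort proteins to the lysosome, 5 fell and 1 rose as deposited, beside 23.5% and 6.07% of all genes. After scaling 6 fell and 7 rose, beside 27.1% and 26.6% of all genes. The count that fell as deposited was 12 without vehicle replicate 6, beside 38.7% of all genes, and 3 without S217879 replicate 3, 5 or 7 or vehicle replicate 1, 2, 5, 9 or 10. Sort1, sortilin, a receptor that carries prosaposin and takes up progranulin, averaged 9.61 ± 1.89 TPM in S217879 livers and 5.21 ± 1.46 TPM in vehicle livers, without overlap (log2 difference 0.85, limma adjusted p = 4.80e-06). The adaptor genes Ap3m1, Gga2 and Ap3d1 fell by 0.46, 0.43 and 0.29 (limma adjusted p = 0.0072, 0.0037 and 0.0449).

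Of 23 genes of the TFEB family and its control by mTORC1, 6 fell and none rose as deposited, beside 23.5% and 6.07% of all genes. At an unadjusted p under 0.05, 1 was higher, and 0 by the Wilcoxon test. After scaling 7 fell and 4 rose, beside 27.1% and 26.6% of all genes. As deposited 10 fell without vehicle replicate 6, beside 38.7% of all genes. Rragd, a Rag GTPase that recruits TFEB to the lysosome and is itself a TFEB target, averaged 4.74 ± 2.35 TPM in S217879 livers and 7.17 ± 1.48 TPM in vehicle livers (log2 difference -0.66, limma adjusted p = 0.0327). Ppargc1a, a coactivator of mitochondrial genes, fell by 0.53, Ywhah, a 14-3-3 protein, by 0.39 and Tsc1, an inhibitor of mTORC1, by 0.27 (limma adjusted p = 3.29e-04, 0.0090 and 0.0455).

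Among autophagy genes few passed as deposited and more rose than fell after scaling. As deposited 2 of 32 rose and 1 fell, beside 6.07% and 23.5% of all genes (2 fell by the Wilcoxon test or without S217879 replicate 9, 4 without vehicle replicate 7, 6 without vehicle replicate 6, beside 38.7% of all genes). After scaling 17 rose and 5 fell, beside 26.6% and 27.1% of all genes. Gabarapl1, an ATG8 protein of the autophagosome, averaged 447 ± 43.3 TPM in S217879 livers and 330.2 ± 78.7 TPM in vehicle livers (log2 difference 0.47, limma adjusted p = 0.0061). Atg5, needed to attach ATG8 proteins to lipid, rose by 0.36 (limma adjusted p = 0.0217), and Uvrag, a partner of Beclin 1, fell by 0.39 (limma adjusted p = 0.0049). Of the cystatins, inhibitors of the cysteine cathepsins, 2 were tested. Cstb averaged 115 ± 20.5 TPM in S217879 livers and 144 ± 23.5 TPM in vehicle livers and had a log2 difference of -0.32 (limma adjusted p = 0.0418), a call that was lost without any 1 of S217879 replicates 1, 2, 3, 5, 6, 7 and 10 and vehicle replicates 1, 2, 3, 4, 5, 8, 9 and 10.

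Lysosomal genes are transcribed in every liver cell and strongly in macrophages. Every tested gene listed for macrophages derived from monocytes or laden with lipid fell, while most tested Kupffer cell markers did not pass. Not passing does not show that a gene was level, and the 12 tested Kupffer cell markers had a median log2 difference of -0.21. Whether any marker followed the members from liver to liver was not tested. Of 21 tested genes listed for macrophages derived from monocytes or laden with lipid, all 21 fell as deposited, beside 23.5% of all genes. That list also holds genes that Kupffer cells make too, such as Adgre1 and Csf1r. All 21 also fell after scaling and without vehicle replicates 6 and 7, beside 27.1% and 54.4% of all genes. The summed level of the listed genes was 747 to 1229 TPM in S217879 livers and 1214 to 1939 TPM in vehicle livers. The median log2 difference of the 21 was -0.95. Plin2, a lipid droplet protein also of hepatocytes, averaged 251 ± 49.1 TPM in S217879 livers and 438 ± 65.0 TPM in vehicle livers, and Lyz2, lysozyme, 225 ± 42.0 TPM in S217879 livers and 370.3 ± 61.1 TPM in vehicle livers. Cd68 and Gpnmb on that list are proteins of late endosomes and lysosomes themselves. The part of macrophage number or state in the fall of the members was not tested.

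Kupffer cell markers gave 3 that fell and 1 that rose among 12 tested, beside 23.5% and 6.07% of all genes. Their sums were 567 to 1089 TPM in S217879 livers and 656 to 1396 TPM in vehicle livers. Cd5l averaged 226 ± 42.0 TPM in S217879 livers and 267 ± 66.7 TPM in vehicle livers and did not pass (limma adjusted p = 0.2589), whereas C1qb, which other macrophages also make, fell to 146 ± 26.2 TPM in S217879 livers, against 222 ± 39.5 TPM in vehicle livers. All 11 stellate cell and myofibroblast markers fell as deposited, beside 23.5% of all genes (7 by the Wilcoxon test, 10 after scaling). Their sums were 222 to 432 TPM in S217879 livers and 314 to 579 TPM in vehicle livers. Dcn averaged 169 ± 45.6 TPM in S217879 livers and 217 ± 42.2 TPM in vehicle livers, and Col3a1 27.6 ± 4.89 TPM in S217879 livers and 58.5 ± 13.2 TPM in vehicle livers. Sinusoidal endothelial markers went up in 4 of 10 and down in 0 as deposited, beside 6.07% and 23.5% of all genes (down also 0 at an unadjusted p under 0.05 and by the Wilcoxon test). Without vehicle replicates 6 and 7, 3 went up and 1 down, beside 5.56% and 54.4% of all genes. After scaling 8 went up and 0 down, beside 26.6% and 27.1% of all genes. Their sums were 194 to 250 TPM in S217879 livers and 109 to 226 TPM in vehicle livers. Of these markers Clec4g averaged 40.8 ± 5.09 TPM in S217879 livers and 32.9 ± 8.18 TPM in vehicle livers, and Stab2 22.6 ± 2.24 TPM in S217879 livers and 24.5 ± 4.40 TPM in vehicle livers.

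Of 14 hepatocyte markers 5 fell and 1 rose, beside 23.5% and 6.07% of all genes (8 fell without vehicle replicate 6, beside 38.7% of all genes, and 3 without S217879 replicate 7). Their sums were 46420 to 74200 TPM in S217879 livers and 38610 to 85780 TPM in vehicle livers. Apoa1 averaged 5759 ± 1807 TPM in S217879 livers and 9219 ± 2072 TPM in vehicle livers. Cholangiocyte markers fell in 2 of 4 tested, beside 23.5% of all genes. The count was 1 without S217879 replicate 3, 5, 6, 7 or 10 or vehicle replicate 2, 3, 5, 8, 9 or 10. With no filter on low values it was 4, beside 11.9% of all genes. Their sums were 89.4 to 244 TPM in S217879 livers and 178 to 467 TPM in vehicle livers. Spp1, shared with the macrophage list, averaged 144 ± 52.6 TPM in S217879 livers and 286 ± 68.6 TPM in vehicle livers, and Epcam 5.17 ± 1.94 TPM in S217879 livers and 8.30 ± 2.88 TPM in vehicle livers.

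Of 7 tested lymphocyte genes (T, NK and B cells) none passed in limma (0, also at an unadjusted p under 0.05 and by the Wilcoxon test, but 2 rose without vehicle replicate 3), and their sums were 28.6 to 191 TPM in S217879 livers and 38.8 to 494 TPM in vehicle livers, mostly Ighm at 57.5 ± 50.8 TPM in S217879 livers and 92.4 ± 128 TPM in vehicle livers. Ccl5 averaged 10.04 ± 4.70 TPM in S217879 livers and 11.8 ± 4.68 TPM in vehicle livers. Neutrophil markers were low, with sums of 5.45 to 22.2 TPM in S217879 livers and 8.46 to 26.6 TPM in vehicle livers. Of the 3 tested 1 fell, beside 23.5% of all genes. That was Csf3r, at 2.77 ± 0.400 TPM in S217879 livers and 4.62 ± 0.819 TPM in vehicle livers, while S100a9 averaged 3.78 ± 2.37 TPM in S217879 livers and 4.41 ± 2.76 TPM in vehicle livers. For fat cells Lep was listed at 0 in all 10 S217879 libraries and averaged 0.00193 TPM in vehicle livers, and the 6 listed genes summed to 162 to 364 TPM in S217879 livers and 95.1 to 213 TPM in vehicle livers. That sum was mostly Cidec, which hepatocytes with fat also make, at 137 ± 33.6 TPM in S217879 livers and 150.4 ± 30.2 TPM in vehicle livers, and Cfd, at 102 ± 57.4 TPM in S217879 livers and 20.8 ± 12.5 TPM in vehicle livers. The part of any of these cell types in the lysosomal differences was not tested.

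**Figure D5:**
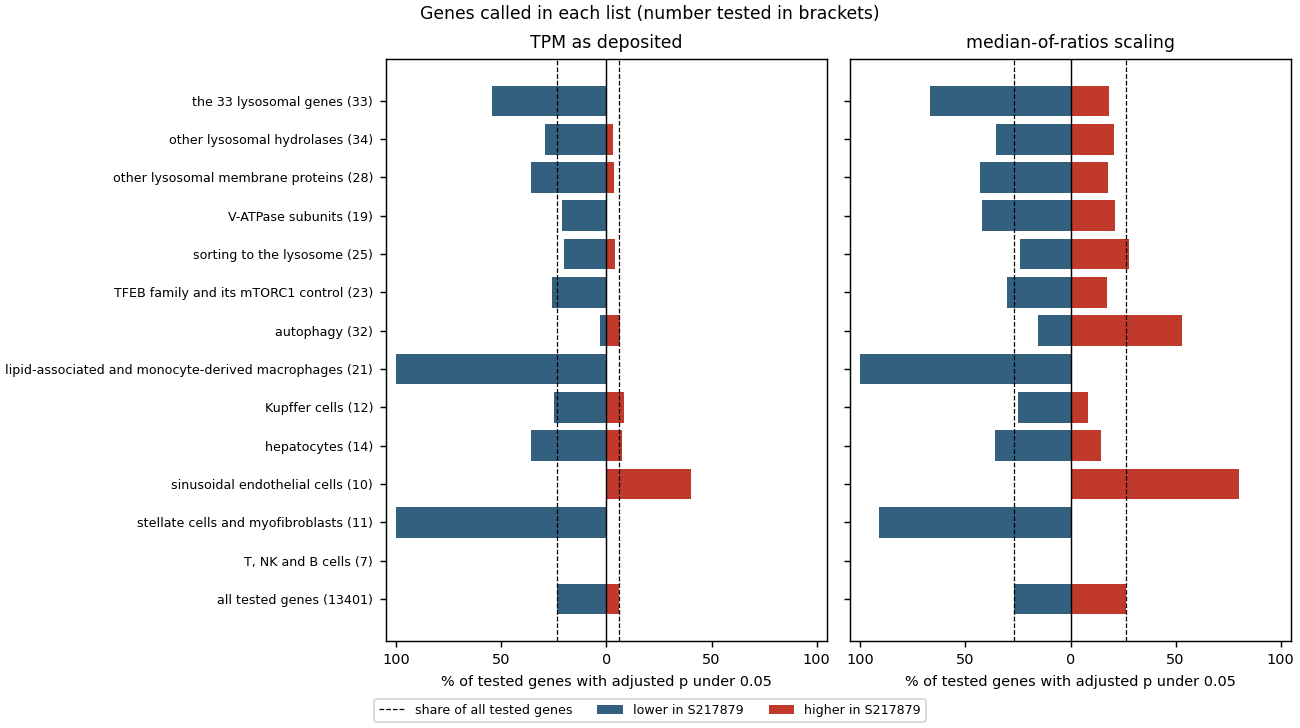
Bars give the percentage of tested genes in each list with an adjusted p under 0.05, lower in S217879 livers to the left of 0 and higher in them to the right, as deposited and after median-of-ratios scaling, with dashed lines at the share of all tested genes and lists of at least 5 tested genes shown. Of the 33 lysosomal genes 18 fell as deposited, and the macrophage and stellate cell lists have all their tested genes on the left as deposited.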

How the data were processed

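The authors deposited 1 table of TPM values with 49315 genes and 20 libraries, made from polyadenylated RNA with a stranded kit per the labels' protocols. The submitters' processing notes name GRCm38 and the tools STAR 2.5.2b, Trimmomatic 0.36, Subread 1.5.2 and featureCounts. Their roles, the annotation and the use of strand are not given in those notes. TPM keeps no depth, so only the number of animals and their spread set the precision. Columns were matched by animal number, 0 were left unmapped, and 0 pairs of libraries were identical. A symbol was found for 48970 gene identifiers. Of the cholangiocyte list 1 gene is not reported here.

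Tests ran on log2(TPM + 0.5) for the 13401 genes whose mean reached 1 TPM, all 33 members among them. Fold changes on that scale understate changes of low genes. The test was limma 3.58.1 (R 4.3.3) with group as the only term, a trended and robust eBayes, and a Benjamini-Hochberg adjusted p under 0.05 over all genes tested. Tested on simulated data of 13401 genes for this comparison, it recovered 65% of log2 changes of 0.5 and 99% of log2 changes of 1, and called 5 of 13201 unchanged genes. Each gene was simulated on its own, without the library scale that genes of a real library share. These rates therefore do not cover wrong calls that come from a difference in scale. Summaries, exact Wilcoxon tests and figures used pandas 2.3.3, numpy 2.4.6, scipy 1.17.1 and matplotlib 3.10.9.

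The members, the lists of other genes and the tests were chosen with earlier results of these data known, although the rule for the members uses no measured value. Members were named in full by rule: the called members with the 8 lowest and 6 highest log2 differences, the 5 of highest mean TPM, and Tfeb, Mcoln1, Lamp1, Lamp2, Ctsb, Ctsd, Ctsl, Npc1, Npc2, Lipa, Grn and Psap. Of each pathway list the called genes with the 2 lowest and 2 highest differences are named, and of each marker list the 2 of highest mean TPM. Adgre1, Csf1r, Cd68, Gpnmb, Cfd beside Cidec, and the members picked for shares, ratios and promoters were chosen after their values were seen. Alternatives were other pseudocounts (0.1 and 1), other filters (none, 5 TPM), median-of-ratios scaling (over 13226 tested genes above 0 in every library), quantile normalization, rescaling without the 4 rRNA-type or 35 mitochondrially encoded genes, other eBayes settings, array weights, left-out libraries and an exact Wilcoxon rank-sum test.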

Additional observations from a re-analysis of the deposited data

Results flagged for a closer look

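In each member and group of 10 livers the gap of the highest or lowest liver to its neighbour, as a share of the group's range, was compared with Dixon's 95% critical value. Of 66 such groups 4 exceeded it, and chance flags about 1 in 20 groups. S217879 replicate 4 was the highest of its group for Lipa at 263.9 TPM and for Asah1 at 26.83 TPM, both genes of lipid breakdown that fell. S217879 replicate 9 was the highest of its group for Ctsa at 80.89 TPM. Vehicle replicate 6, the library with most rRNA-type TPM, was the lowest of its group for Ctsc at 18.82 TPM.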

How the results depend on the processing

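No paired analysis was possible because the labels give each animal a number of its own that the other group does not share. The replicate numbers 1 to 10 in each group follow accession order, name samples only and pair none. Over the single members and their alternatives, 918 results kept direction and side of the threshold, 64 passed where they had not, 63 no longer passed and 41 changed sign.

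Over all tested genes, 813 higher as deposited became 3561 with median-of-ratios scaling, 3536 with quantile normalization and 3244 with that scaling without vehicle replicates 6 and 7, the last an alternative chosen after seeing the data. The 3151 lower genes became 1642 with a minimum of 5 TPM, 8576 without the rRNA-type genes, 8023 with array weights, 7307 without vehicle replicates 6 and 7, and 2637 to 5194 on leaving out single libraries (5194 without vehicle replicate 6). In the same settings the lysosomal members called higher were 6 with median-of-ratios scaling, 6 with it without those replicates and 2 with quantile normalization, against 0. Members called lower were 28 without the rRNA-type genes, against 18, and 14 to 24 on leaving out single libraries (24 without vehicle replicate 6). Of the pathway genes, 5 higher became 44 with median-of-ratios scaling, 38 with quantile normalization, 8 without the rRNA-type genes and 40 with scaling without vehicle replicates 6 and 7, and stayed at 5 to 6 on leaving out single libraries. The 37 lower became 24 with a minimum of 5 TPM, 64 with quantile normalization, 124 without the rRNA-type genes, 111 with array weights, 102 without vehicle replicates 6 and 7, and 27 to 70 on leaving out single libraries. Fewer genes were tested with the minimum of 5 TPM. For the other settings the cause was not tested. Read depth is unknown in TPM, so the precision of each difference rests on the spread between animals and their number alone.

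The sign changed only among 8 members that did not pass as deposited. Without the rRNA-type genes log2 differences were -0.128 for Ctsc, -0.125 for Ctsd, -0.0242 for Gaa, -0.0948 for Ids and -0.0421 for Lamp1. With array weights they were -0.131 for Ctsc, -0.0643 for Ctsd, -0.0896 for Ids and -0.0437 for Lamp1. Without vehicle replicates 6 and 7 they were -0.0810 for Ctsc, -0.0799 for Ctsd, -0.0006 for Gaa, -0.0925 for Ids and -0.0364 for Lamp1. With quantile normalization Ctsd was -0.110, Lamp1 -0.0215 and Arsb 0.0314. With median-of-ratios scaling Ctsh was 0.0050, Hexa 0.112 and Arsb 0.0656, and without vehicle replicates 6 and 7 Hexa was 0.136 and Arsb 0.0783. Without mitochondrially encoded genes Hexa was 0.0173. On leaving out single libraries Ctsc ran from -0.0812 to 0.0656, Ctsd from -0.0337 to 0.0531, Hexa from -0.0570 to 0.0261 and Ids from -0.0320 to 0.0741.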
